A study of Mus musculus with 14 samples.

Results

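H3K27me3 sites were examined at 8 transcription factor genes that direct the development of gut, liver and pancreas, namely Pdx1, Cdx1, Cdx2, Hnf4a, Hnf4g, Onecut1, Prox1 and Ptf1a. The genes were taken by name, and all 8 were found among the 21938 protein-coding genes of the annotation. For each of them, sites were counted in 3 windows, namely within 1 kb of its transcription start sites (TSSs), over its body, and over the gene with 50 kb on either side. These surroundings held 227 of the 153983 sites in the list. The cells were immortalised mouse embryo fibroblasts (iMEF), cultured cells of mesenchymal origin. In all of them, controls included, an exon of the endogenous Ash2l gene had been removed by Cre-ER with 4-hydroxytamoxifen, and the cells depended on FKBP-HA2-ASH2L, a tagged human protein delivered by a lentivirus. The cells were of the single clone NG3, so that differences between clones are not covered. The compound dTAG-13 links the tag to the ubiquitin ligase subunit cereblon, which leads to degradation of ASH2L. H3K27me3 was profiled in 12 libraries, with 2 libraries each of untreated cells (control) and of cells given dTAG-13 for 30 min, 2 h, 4 h, 8 h or 16 h. There were also 2 input libraries, from control cells and from the 16 h treatment. The list of sites combines all samples and carries no value for a single library, so that treated and control cells were not compared, and all values below describe 1 list without replicates. Its depth is unknown, and a stretch without a site is not shown to lack the mark.

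H3K27me3 is set by Polycomb repressive complex 2 (PRC2), which in mammals is found mainly at CpG islands of genes that are not transcribed. Regulators of lineages other than that of the cell itself are a well known class of PRC2 targets. The factors studied here act in the embryonic endoderm and the organs that arise from it. Pdx1 and Ptf1a are required for the pancreas, Cdx1 and Cdx2 for the intestinal epithelium, and Hnf4a, Hnf4g, Onecut1 and Prox1 take part in liver and gut programmes. Fibroblasts do not carry out these programmes.

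Promoters with very different CpG content were found inside sites. RefSeq promoters of 300 bp (250 bp before and 50 bp after the start, assembly GRCm38.p6) were given for 6 of the 8 genes. These 8 promoters, including 2 each from Prox1 and Hnf4a, were all wholly covered by sites. The share of all RefSeq promoters that were wholly covered was not computed, so this count has no background. No promoter was given for Cdx1 and Hnf4g. The dinucleotide CG, which reads the same on both strands, was present in 94.6% of all 32851 promoters in the table, with a median of 7 per promoter. Onecut1 had 38, more than 95% of the promoters, Prox1 had 25 and 14 at its 2 promoters, Ptf1a had 23, Cdx2 18 and Pdx1 11. Both promoters of Hnf4a had only 4. The sequence TATAAA was found on either strand in the first of the Prox1 promoters, in no other of the 8, and in 13.6% of all promoters. The richest promoter, both of Hnf4a and 2 between them are shown to make this range visible, 5′ to 3′ in the direction of transcription with each CG in capitals. They are Onecut1 (chr9:74861671-74861970, plus strand), Ptf1a (chr2:19445413-19445712, plus strand), Cdx2 (chr5:147307200-147307499, minus strand) and Hnf4a (chr2:163506607-163506906 and chr2:163546905-163547204, plus strand).
Onecut1: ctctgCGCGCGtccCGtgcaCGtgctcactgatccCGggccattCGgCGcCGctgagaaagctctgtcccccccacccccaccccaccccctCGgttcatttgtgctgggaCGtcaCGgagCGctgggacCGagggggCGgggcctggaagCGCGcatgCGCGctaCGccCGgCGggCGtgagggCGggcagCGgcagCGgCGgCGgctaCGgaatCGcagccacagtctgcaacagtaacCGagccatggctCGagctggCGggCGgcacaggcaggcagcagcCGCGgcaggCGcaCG
Ptf1a: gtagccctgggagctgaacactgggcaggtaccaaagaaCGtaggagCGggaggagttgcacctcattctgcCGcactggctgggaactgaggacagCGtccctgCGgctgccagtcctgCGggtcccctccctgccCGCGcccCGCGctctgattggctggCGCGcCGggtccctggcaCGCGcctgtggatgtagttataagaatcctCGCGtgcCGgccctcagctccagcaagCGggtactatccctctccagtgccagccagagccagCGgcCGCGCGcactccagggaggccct
Cdx2: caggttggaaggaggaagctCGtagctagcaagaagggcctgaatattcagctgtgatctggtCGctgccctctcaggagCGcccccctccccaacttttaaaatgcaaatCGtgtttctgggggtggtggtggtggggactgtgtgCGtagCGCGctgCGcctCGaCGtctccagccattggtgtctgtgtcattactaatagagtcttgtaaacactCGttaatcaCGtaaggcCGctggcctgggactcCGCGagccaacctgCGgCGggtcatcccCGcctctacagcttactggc
Hnf4a first: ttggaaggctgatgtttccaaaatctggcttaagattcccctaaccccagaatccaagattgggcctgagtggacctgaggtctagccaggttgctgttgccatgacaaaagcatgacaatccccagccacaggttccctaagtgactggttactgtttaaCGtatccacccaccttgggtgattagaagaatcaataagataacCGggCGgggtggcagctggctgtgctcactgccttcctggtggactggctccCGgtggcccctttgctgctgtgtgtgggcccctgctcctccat
Hnf4a second: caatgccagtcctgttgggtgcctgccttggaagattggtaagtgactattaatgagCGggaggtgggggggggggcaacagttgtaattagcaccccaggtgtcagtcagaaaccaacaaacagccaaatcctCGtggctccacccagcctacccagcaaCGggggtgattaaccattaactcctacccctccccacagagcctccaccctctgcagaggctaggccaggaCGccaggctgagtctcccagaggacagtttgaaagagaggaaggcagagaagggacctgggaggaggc

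A site lay within 1 kb of a TSS at all 8 genes, while this was so at 31.5% of all protein-coding genes. The first TSS of each gene, which is the most upstream one, was inside a site, as it was for 16.9% of all genes. In 5 genes (Pdx1, Cdx2, Onecut1, Prox1 and Ptf1a) the 1 kb windows were covered from end to end, compared with 5.44% of all genes. A site of at least 5 kb reached into these windows at the same 5 genes and at Hnf4a, compared with 8.69%. All 8 genes also had a site in the body, compared with 46.7%, and in the surroundings of 50 kb, compared with 88% of all genes, so that the mere presence of a site nearby set them little apart. Pdx1 and Cdx2 are neighbours and share part of their surroundings, so the 8 genes are not 8 independent loci. The genes had been chosen with earlier results of these data in view, and no test was made.

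The covered share of the bases separated the genes more than the presence of a site did. Over the gene and 50 kb around it, sites covered 67.1% at Pdx1, 57.4% at Cdx2, 52.7% at Ptf1a, 47.1% at Onecut1 and 46.9% at Hnf4a. The share was 35.98% at Prox1, 19.8% at Cdx1 and 1.72% at Hnf4g. The median of the 8 genes was 47.0%, whereas it was 3.81% over all protein-coding genes. Thus 6 of the 8 exceeded the 90th percentile of all genes, which was 32.2%, while Cdx1 was above 80.8% and Hnf4g above 38.5% of all genes. The median share of the gene body was 74.9% for the 8 genes and 0% for all genes. Pdx1, Cdx2 and Ptf1a, which are short genes of 5890, 6466 and 1839 bp, each had their body wholly inside 1 site. Hnf4g, the longest with 150023 bp, had 0.931% of it covered.

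**Figure D1:**
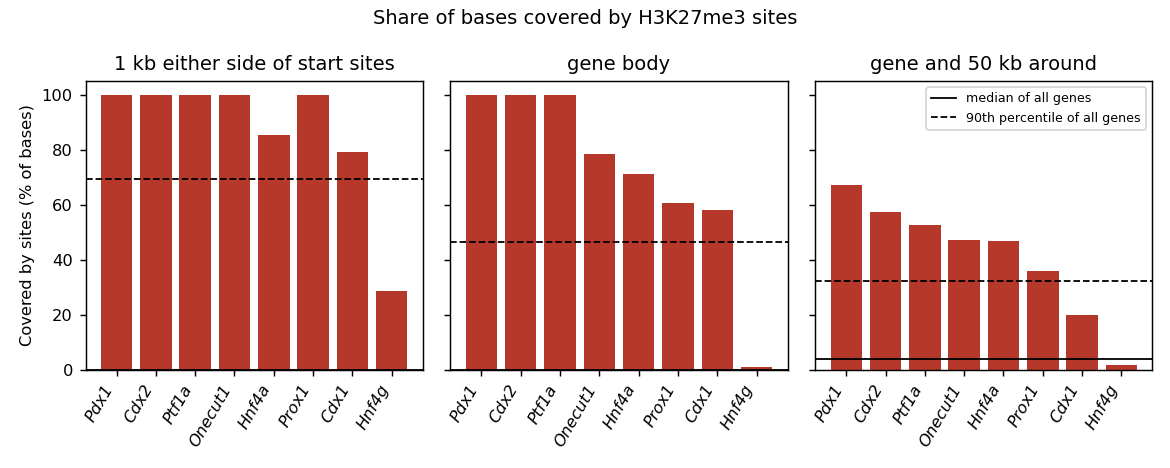
Bars give the share of bases covered by H3K27me3 sites (%) at each of the 8 genes in the windows of 1 kb around the TSSs, in the gene body, and in the gene with 50 kb on either side. Solid lines mark the median and dashed lines the 90th percentile over all protein-coding genes. The median is 0 in the first 2 panels, and Hnf4g is below the dashed line in every panel.

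The sites themselves ranged from the smallest width in the list, 200 bp, to 26548 bp. The median width of the 227 sites was 593 bp, compared with 455 bp for all sites, and 16 of them (7.05%) were at least 5 kb wide, compared with 3.30% of all sites. Sites of exactly 200 bp made up 7.93% of the 227 and 12.6% of all. Hnf4g and Cdx1, with the fewest sites (8 and 18), also had the lowest covered shares of the surroundings. More sites did not always mean a larger share, however. Prox1 had the most sites, 59, with a median width of 452 bp and 35.98% of its surroundings covered. Pdx1 had 20 sites with a median width of 482.5 bp and 67.1% covered.

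Pdx1, required for formation of the pancreas and for the function of its insulin-producing cells, lies on chromosome 5 (GRCm38, 147269959 to 147275848, plus strand). Its TSS was inside a site of 15.8 kb (147264872 to 147280687) that reached 5087 bp upstream and 10728 bp downstream. Upstream of the TSS, 53.4% of 50 kb was covered, and downstream of the gene 77.0%, the highest value on that side. The downstream stretch includes Cdx2, since the TSSs of both genes are 37311 bp apart and the genes are transcribed towards each other. Their surroundings overlap by 75.04 kb and share 12 sites. Over the combined 137.3 kb, 31 sites covered 57.9%. Between the ends of the genes, 6 sites covered 64.0% of 24956 bp, with a gap of 3.79 kb as the longest there. When sites closer than 5 kb were joined, both genes were in 1 domain of 70.7 kb, 78.9% of which was covered by 15 sites.

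Ptf1a, which directs progenitors to the pancreas and its exocrine cells and also acts in inhibitory neurons, lies on chromosome 2 (19445663 to 19447501, plus strand). The site over its TSS was 18.1 kb wide (19440132 to 19458279) and extended 5531 bp upstream and 12616 bp downstream, far beyond both ends of the gene. Coverage was nearly even on both sides, with 52.4% of 50 kb upstream of the TSS and 51.3% of the 50 kb past the gene end. The 40 sites in its surroundings were in 1 domain of 87.3 kb when gaps of less than 5 kb were closed, the widest of the 8 genes, of which 61.5% was covered.

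Cdx2, the homeobox factor that sets intestinal identity, lies on chromosome 5 (147300805 to 147307270, minus strand). It had the widest site of all 8 genes, 26548 bp (147293058 to 147319605), reaching 12335 bp upstream and 14212 bp downstream of the TSS. This site also reached into Urad, the neighbour upstream, whose TSS is 15.2 kb away and whose body was 95.6% covered. Flt3, which codes for a receptor of blood progenitors and lies next to Urad, was covered over 33.3% of its body.

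Cdx1, its paralog, differed in that the sites were almost only on one side. The gene lies on chromosome 18 (61018862 to 61036199, minus strand), and the site over its TSS was 1.70 kb wide (61035077 to 61036779) and ended 580 bp upstream. This was the only site in 50 kb upstream of the TSS, where 1.16% was covered and the remaining 49.4 kb was free of sites. Pdgfrb, a receptor gene typical of fibroblasts and other mesenchymal cells, starts 8.95 kb upstream in the opposite direction and had no site at its TSSs or in its body. The body of Cdx1 was 58.0% covered by 9 sites. The widest of them, 8338 bp, extended past the end of the gene to the transporter gene Slc6a7, whose promoter was wholly covered. Here GC content was 51.9% and 14.9% of bases were in repeats, a lower share of repeats than at the other 7 genes.

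**Figure D2:**
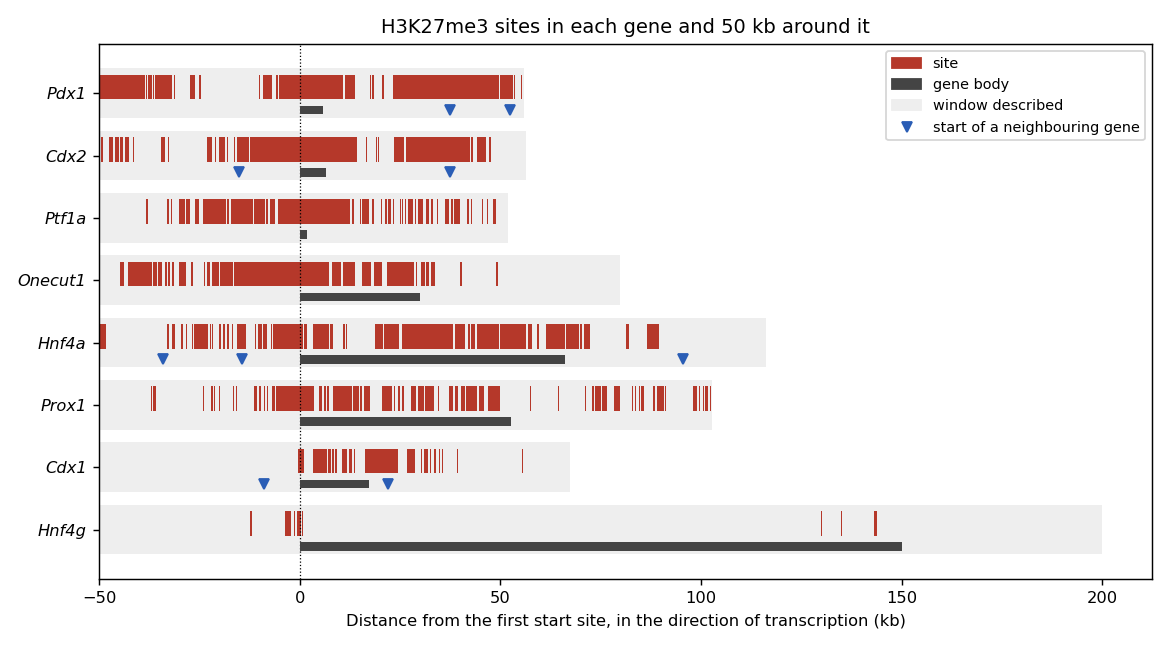
Each row shows 1 gene with its H3K27me3 sites (red) by distance from the first TSS in kb, positive in the direction of transcription, over the gene body (dark) and 50 kb on either side (grey), with triangles at the starts of neighbouring protein-coding genes. Sites lie on both sides of the TSS at Pdx1, Cdx2, Ptf1a, Onecut1, Hnf4a and Prox1, almost only downstream at Cdx1, and 4 of the 8 sites of Hnf4g are within 4.44 kb around its TSS.

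Hnf4a codes for a nuclear receptor that is central to hepatocytes and is also active in gut and pancreas, where it is known to be transcribed from alternative promoters. The gene lies on chromosome 2 (163506808 to 163572910, plus strand) and had 5 annotated TSSs in 2 groups about 40 kb apart. All 5 were inside sites. The first TSS was in a site of 7.48 kb (163500224 to 163507701), and 94.7% of its 1 kb windows were covered. At the second group, coverage of the same windows was 100%, 88.0%, 88.0% and 70.9%. A single site of 2530 bp held the first 3 of these TSSs. The last was in a site of 1047 bp, and its window was reached by 3 sites, the widest of 5472 bp. The body was 71.3% covered by 19 sites, with 100% of exon sequence and 69.1% of intron sequence. A gap without sites began 11.8 kb downstream of the first TSS, and within it the stretch from 12.3 to 18.8 kb matched a sequence outside the assembled chromosomes at 99.0% identity over 6.44 kb. No site overlapped this stretch. No such match of at least 1 kb and 99% identity was found in the surroundings of the other 7 genes. Copies on the assembled chromosomes themselves were not searched. Reads from near-identical copies can be lost to filters on mapping, and the part of this in the gap was not tested. Upstream, R3hdml had a covered promoter (99.1%), while Fitm2, which starts 34.2 kb away, had no site at its promoter.

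Hnf4g, the paralog of Hnf4a with a role in the intestine, had the fewest and narrowest sites. It lies on chromosome 3 (3508030 to 3658052, plus strand) without another protein-coding gene within 50 kb. The site over the first TSS was 947 bp wide (3507328 to 3508274), and 57.3% of the 1 kb windows there were covered. With only sites of at least 1 kb kept, neither the promoter nor the body of Hnf4g had a site. The other annotated TSS, 126120 bp downstream, had no site within 1 kb. In all, 8 sites were found, none wider than 1606 bp and 3 of them at the minimum of 200 bp. Of these, 4 were within 4.44 kb around the first TSS, and the next 129 kb of the gene were free of sites. GC content of the surroundings was 37.7%, the lowest of the 8 genes, with only 3.94% of all genes below it, and 51.0% of bases were in repeats, the highest share.

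Onecut1, also known as HNF6 and needed for bile ducts and the endocrine pancreas, lies on chromosome 9 (74861921 to 74891781, plus strand). Both of its TSSs were inside a site of 23.6 kb (74845544 to 74869166) that extended 16377 bp upstream and 7245 bp downstream. Coverage was 68.9% of 50 kb upstream of the first TSS, the highest value on that side, and 6.71% of the 50 kb past the gene end. In these flanks the order was the reverse of that at Cdx1, with 1.16% upstream and 25.2% past the gene end. Seen from the TSS, however, Onecut1 had sites on both sides. Of all 8 genes, 4 had more coverage in the 50 kb past the gene end than in the 50 kb upstream of the first TSS. The gene body is in neither of these flanks. The body was 78.4% covered, and no other protein-coding gene was within 50 kb.

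Prox1, which is needed for growth of the liver and for lymphatic endothelium, lies on chromosome 1 (190118035 to 190170714, minus strand). All 3 TSSs were inside a site of 9.46 kb (190167165 to 190176629). The body was 60.7% covered by 24 sites, and the exon and intron shares were similar, 67.7 and 59.4%. The median width of its sites, 452 bp, was near the 455 bp of all sites. Many sites were closely spaced. Closing gaps of less than 1 kb gave a domain of 10.4 kb at the TSS, and closing those of less than 5 kb gave one of 74.0 kb with 35 sites. This contrasts with Hnf4g, whose domain was 4.44 kb wide in both settings.

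By distance from the first TSS, the mean covered share of the 8 genes was 82.7% in the 5 kb just upstream and 75.9% in the 5 kb just downstream. It was 22.2% at 45 to 50 kb upstream and 41.9% at 45 to 50 kb downstream. In the 5 kb just upstream, 6 genes were covered to 100%, Hnf4g to 50.2% and Cdx1 to 11.6%. Over all protein-coding genes the mean share was nearly flat, at 13.7% and 14% next to the TSS and 11.2% and 10.2% at the outer ends. A second rise of the mean at 30 to 35 kb downstream, to 64.3%, included the Cdx2 site seen from Pdx1, the Pdx1 site seen from Cdx2, and the body of Hnf4a.

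**Figure D3:**
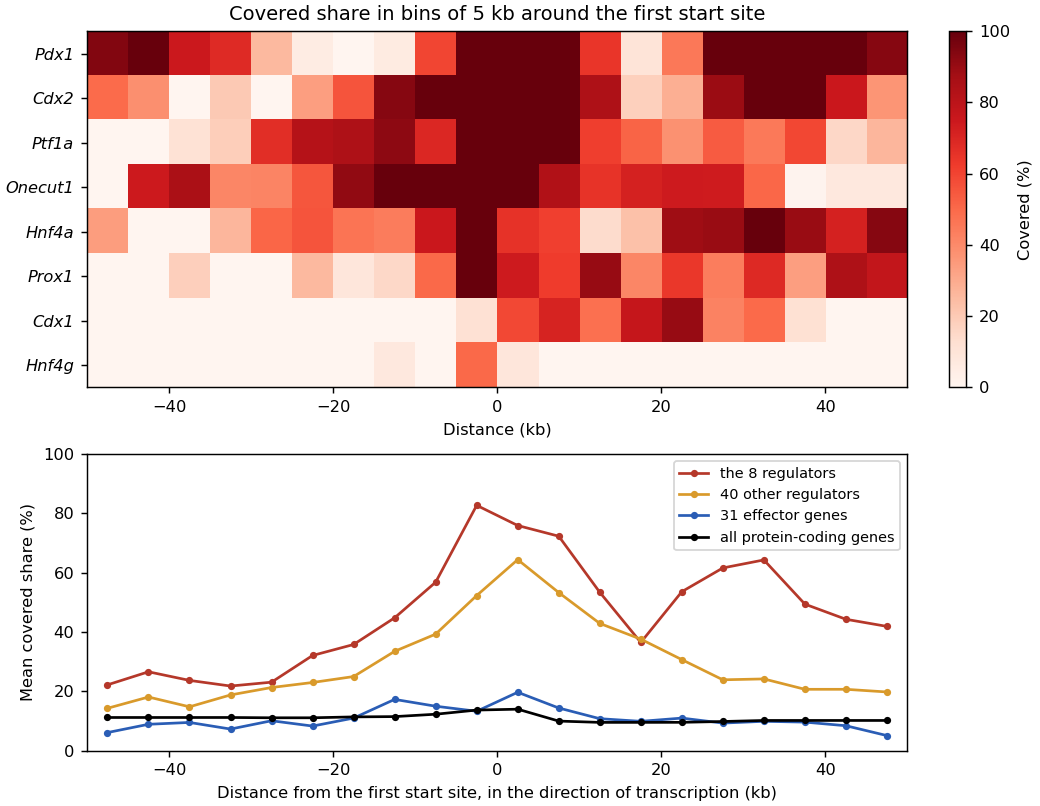
The upper panel gives the covered share (%) in bins of 5 kb by distance from the first TSS in kb for each of the 8 genes, and the lower panel gives the mean share for these genes, for 40 other regulators of the same organs, for 31 effector genes and for all protein-coding genes. The mean of the 8 genes peaks at 82.7% next to the TSS, and that of all genes stays between 9.55 and 14%.

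Base composition differed among the 8 genes. Promoters with 50% GC or more and an observed-to-expected ratio for CpG of 0.6 or more, over 500 bp on each side of the first TSS, were termed CpG-rich. This held for Cdx1, Cdx2, Onecut1, Prox1 and Ptf1a, with ratios of 0.786, 0.637, 0.784, 0.794 and 0.731. It did not hold for Pdx1 (0.563), Hnf4g (0.463) and Hnf4a (0.223). Both kinds had sites, 5 of 5 and 3 of 3, whereas 25.5% of all CpG-rich and 36.3% of the other promoters had one. The covered share of the surroundings rose with GC content over all genes, from a median of 0.295% in the lowest to 14.7% in the highest of 5 equal groups of GC content. Hnf4g belonged to the lowest group and had 1.72%, and Cdx1 belonged to the highest and had 19.8%. Ptf1a, with 43.6% GC, was covered to 52.7% against a median of 5.55% in its group. Within the surroundings of every one of the 8 genes, GC content was higher inside sites than outside, by the most at Hnf4g (47.5 and 37.5%), and repeats were fewer inside, by the most again at Hnf4g (12.8 and 51.7%). The same comparison was not made for other genes, so whether this differs from genes in general is unknown. The part of GC content and of repeats in where sites were called was not tested.

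**Figure D4:**
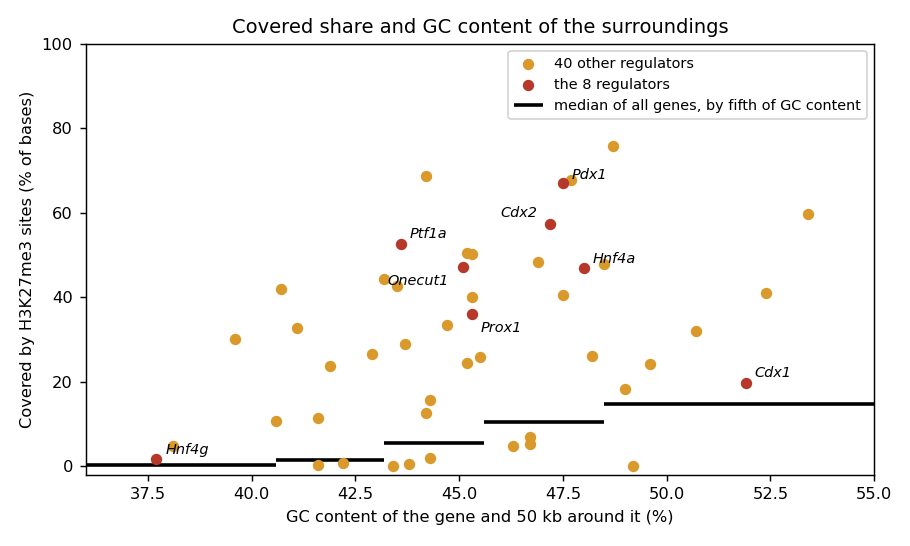
Each point is a gene, placed by the GC content (%) and the share covered by sites (%) of the gene with 50 kb on either side, for the 8 regulators (red, named) and 40 other regulators (yellow), with the median of all genes in each of 5 groups of GC content as a black line. All 8 named genes are above the median of their group. In percentage points, Hnf4g with 1.72% against 0.295% is so by the least and Pdx1 with 67.1% against 10.6% by the most. As a ratio, Cdx1 with 19.8% against 14.7% is the nearest to its median.

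Other transcription factors of the same organs were often covered too. Of 40 such genes, 31 (77.5%) had a site within 1 kb of a TSS, 24 had one of at least 5 kb there, and the median covered share of the surroundings was 26.4%. These genes include the paralogs of the factors above. Onecut2 and Onecut3, which act beside Onecut1, had wholly covered promoters and 29.0% and 59.7% of their surroundings covered, and Cdx4 on the X chromosome had a wholly covered promoter and 42.0%. Promoters were covered from end to end in 18 of the 40 genes, and of these Neurog3, the trigger of endocrine differentiation in the pancreas, had the largest covered share of its surroundings, 75.9%, followed by Foxa2 with 68.7%, an early endoderm factor, Barx1 of the stomach with 67.9%, and Onecut3. By contrast, 9 of the 40 had no site at a TSS, among them the endoderm and liver factors Gata6 and Hhex. Sites covered 2.09% of the surroundings of Gata6, and no site was within 50 kb of Hhex.

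Genes that such factors control in mature organs had values near those of all protein-coding genes. Of 31 found, among them Alb, Ins2, Gcg and Vil1, 12 (38.7%) had a site within 1 kb of a TSS, beside 31.5% of all genes, and 2 (6.45%) had one of at least 5 kb there, beside 8.69%. The median covered share was 0% at the promoters, as over all genes, and 6.26% in the surroundings, beside 3.81%. The most covered promoters were those of the hormone genes Sst and Ppy, both 100%, of G6pc with 79.9%, the glucose-6-phosphatase of liver, and of the fatty acid binding protein gene Fabp1 with 48.8%. None of the 31 had a CpG-rich promoter as defined above, whereas 5 of the 8 regulators and 20 of the 40 others had one. Of promoters that were not CpG-rich, 12 of 31 here had a site, beside 36.3% over all genes. Among the 8 regulators it was 3 of 3, and among the 40 others 14 of 20. The difference between these genes and the regulators was not tested.

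The list holds no expression values, so that the label of the cells was compared with sites at 18 genes typical of fibroblasts. Of these, 7 had a site within 1 kb of a TSS, a share of 38.9% beside 31.5% of all genes, but most of these sites were narrow. At 6 of the 7, namely Col1a1, Vim, Pdgfra, Lum, Prrx1 and Snai1, the widest was between 295 and 534 bp and covered at most 16.8% of the windows. The exception was Tcf21 with a wholly covered promoter and a site of 4620 bp. The median covered share of the surroundings was 0.814%. Col1a2, Col3a1, Fn1, Dcn and Thy1 had no site at a TSS.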

How the data were processed

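ChIP-seq of H3K27me3 was performed on iMEF cells before and after dTAG-13. According to the methods of the study, trimmed reads were aligned with BWA to mm10 (GRCm38.p6), filtered with samtools and merged over replicates with Picard, broad peaks were called with MACS (MACS2 in the submitters' processing notes), and ChIP-seq samples were scaled to the lowest coverage. Versions, thresholds, the order of these steps and the way peaks were combined are not given in the sources used here. The deposited list used here gives chromosome, start and end for the sites of all samples, with no count, score or depth. Planned tests between libraries were therefore not run. The supplement of the study also names a list of sites that changed at each time against control, which was not used here.

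Starts were read as counted from 0 and are printed from 1. Sites were overlapped (at least 1 bp) with protein-coding genes of GENCODE M21 (the study names release M25) on the assembled chromosomes, using Python 3.11.15 and numpy 2.4.6. A covered share is the percentage of bases in a window that lie in sites. Windows of several TSSs were merged. Sequence came from GRCm38.p6, read with pysam 0.24.0, and repeats were its lower-case bases. Copies in sequences outside the assembled chromosomes were searched with minimap2 2.31. The interval functions were tested on simulated data.

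The 8 genes and all gene lists were chosen with earlier results of these data known. The text names all 8, their neighbours, paralogs among the 40 other regulators, the 4 most covered promoters of the lists, and fibroblast markers. Promoters of the other regulators tied at 100%, so those with the largest covered surroundings were taken, and Gata6, Hhex and the examples among effectors and fibroblast genes were chosen after their values were seen. Of 32 effector genes listed, 31 were found. Alternatives were joined sites, minimum widths, other windows, a minimum overlap and TSSs of coding transcripts only.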

Additional observations from a re-analysis of the deposited data

How the results depend on the processing

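No paired analysis was possible because libraries have no values of their own in these sites, which also prevented leaving out a replicate. A value was taken as moved when it changed by more than 1.5 times, or, for the share of all genes, when it left its 95% Wilson interval (30.9 to 32.1%). In 7 of the 8 settings tried, all 8 genes had a site at a TSS. Dropping sites under 1 kb left 7, without Hnf4g, and likewise 7 with a site in the body. The median covered share of the surroundings was 29.6% with 100 kb either side and lay between 34.3 and 67.1% otherwise. The number of sites fell to 80 on closing gaps under 1 kb, 24 on closing gaps under 5 kb, 127 without sites under 500 bp, 73 without those under 1 kb, and 132 within 20 kb of the genes. Over all protein-coding genes, the share with a site at a TSS was 24.2% without sites under 500 bp, 20.1% without those under 1 kb, 30.8% when 100 bp had to overlap, 28.9% for TSSs of coding transcripts, 27.8% within 500 bp and 37.2% within 2 kb. Of 112 values for single genes, 19 moved, 7 of them at Hnf4g. Hnf4g had the lowest and Cdx1 the next lowest covered share of the surroundings as deposited and in all 6 settings that joined sites, dropped narrow sites or changed the flanks. With 20 kb either side, Ptf1a (80.5%) replaced Pdx1 as the highest. The depth behind the sites is unknown, which limits what a gap shows.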
